A study of Caenorhabditis elegans with 123 samples.

Results

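Caenorhabditis elegans embryos carrying the pie-1(zu154) allele and treated with RNA interference against pal-1, written pie-1; pal-1(RNAi) and also called the mutant here, were compared with wild-type N2 embryos 83 min after the 4-cell stage at 22 °C. The 7 arrays labelled with these genotypes and this time, 3 of the mutant and 4 of N2, were taken by their labels from an Affymetrix series that holds another 116 arrays and follows 4 genotypes over 10 time points, 40 groups in all. Each array was made from a pool of staged embryos, and both groups were staged by time at the same temperature. N2 carried no mutation and no RNAi label. How the RNAi was delivered is not said in the labels, and the description files of mutant replicates 1 and 2 carry a note of pal-1(RNAi) food. Arrays of pie-1(zu154) embryos without RNAi at 83 min, 2 in number, are set beside these groups. The labels do not say whether replicates came from separate collections, so the p-values rest on array-to-array spread that may be technical. With 3 and 4 arrays a group, precision is limited by their number.

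PIE-1 is a maternally supplied zinc finger protein, and germline blastomeres need it to stay transcriptionally silent. In its absence the posterior blastomere P2 is known to take on a fate like that of EMS, whose descendants form the intestine and part of the pharynx. PAL-1 is the Caudal-type homeodomain protein that specifies the C and D lineages, which form posterior body muscle and epidermis. The comparison asks which transcripts differ when both functions are reduced, at a time when maternal transcripts are declining and tissue regulators are starting to be expressed.

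The value of a probe set is its deposited log2 value, so a difference of 1 is a 2-fold difference. A probe set was called higher or lower where its adjusted p in limma was under 0.05 and its difference was at least 2-fold, over 22548 probe sets that stand for 17118 genes. Values per array are given for N2 replicates 1 to 4 and for mutant replicates 1 to 3, in that order, and differences are the mutant minus N2, ± the standard error (SE) of the fit. In such pools, fewer cells of a type and less RNA per cell cannot be told apart.

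Lower transcripts outnumbered higher ones in the mutant. Of the 22548 probe sets 799 were called (3.54%), 707 lower (3.14%) and 92 higher (0.408%), which stand for 632 and 82 genes. Among the calls 47 were lower by at least 4-fold and 0 were higher by that much, the largest rise being 1.81 in zfp-3. Groups did not overlap for 695 of the 707 and 89 of the 92, where 19.2% and 10.9% of all probe sets did not overlap in those directions. The balance of the directions depended on scaling. Rises made up 11.5% of the calls on the deposited values, 42.3% after quantile normalization (216 higher and 295 lower) and 49.2% after centring on the 3792 brighter probe sets (285 higher and 294 lower), a step that moved the median difference of all probe sets from -0.027 to 0.266. Median centring gave 98 higher and 624 lower. Without a fold limit 2138 probe sets had an adjusted p under 0.05 (9.48%), 535 higher and 1603 lower.

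**Figure D1:**
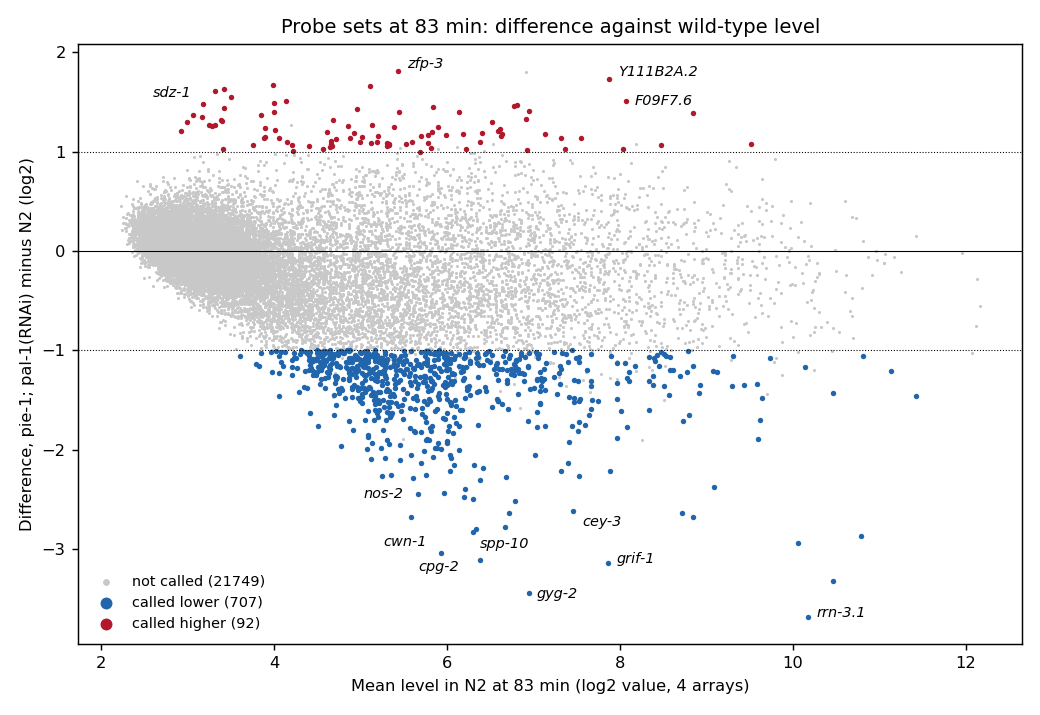
The horizontal axis is the mean deposited log2 value over the 4 N2 arrays, the vertical axis the difference of pie-1; pal-1(RNAi) from N2 in log2 units, and each point is 1 of the 22548 probe sets. The 707 probe sets called lower reach further from 0 than the 92 called higher, none of which passes 1.81, and dotted lines mark a 2-fold difference.

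Several properties of the arrays differed between the groups. The GAPDH 3' minus 5' difference, a measure of RNA integrity or of amplification length, was 0.53 to 0.85 in N2 and 1.19 to 1.62 in the mutant. The 75th percentile was 4.34 to 4.46 in N2 and 3.99 to 4.19 in the mutant. No scan day or chip lot was shared between the genotypes, so scan day, chip lot and genotype cannot be told apart. N2 replicate 4 was noted as rehybridised. With the GAPDH difference as a term in the fit, 352 probe sets were called (47 higher and 305 lower), of which 334 were among the 799. Scan day and lot were not tested apart from genotype. Over 2428 probe sets that change in N2 from 53 to 122 min, the N2 means of 41, 53, 66, 101, 122 and 143 min were set against the 7 arrays. Of these 6 means that of 101 min gave the highest correlation with each array, at 0.927 to 0.955 for N2 and 0.875 to 0.905 for the mutant, given as a description across probe sets that are not independent. The mutant arrays correlated more with the mean of 122 min (0.783 to 0.802) than with that of 66 min (0.681 to 0.73). N2 replicates 2, 3 and 4 went the other way (0.771 to 0.804 against 0.816 to 0.855). N2 replicate 1 read 0.852 with 122 min and 0.758 with 66 min. Whether the groups differed in stage was not tested. Leaving out mutant replicate 3 left 463 calls. N2 replicates 1 and 2 stood apart in heat shock transcripts: hsp-16.2 read 5.63, 4.69, 2.80 and 3.32 in N2 and 3.20, 3.21 and 3.07 in the mutant. In hsp-70 the N2 values were 4.66, 3.44, 2.71 and 2.71. Without these N2 arrays 446 probe sets were called, 31 higher and 415 lower, and 382 of them were among the 799.

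The targeted genes were examined first. The pie-1 transcript read 5.17, 5.40, 5.17 and 5.59 in N2 and 3.3, 3.3 and 3.58 in the mutant. All mutant arrays lay below all N2 arrays, with a difference of -1.94 ± 0.22 (adjusted p = 7.33e-10). In pie-1 embryos without RNAi it read 3.74 and 3.60.

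The 3 probe sets of pal-1 were each lower in all mutant arrays than in any N2 array, and none was called. Groups were separate in this direction for 19.2% of all probe sets. The probe set with the largest difference read 5.81, 5.51, 5.30 and 5.34 in N2 and 3.89, 3.67 and 3.25 in the mutant, a difference of -1.89 ± 0.90 (adjusted p = 0.176). The other two differed by -1.23 ± 0.73 (adjusted p = 0.301) and -0.73 ± 0.86 (adjusted p = 0.645). The spread in these tests is pooled over all 40 groups, and single mutant arrays of other times were high in pal-1, up to 12.21 at 41 min. Fitted on the 7 arrays alone, the adjusted p of the first was 0.000145, that of the second 0.000268 and that of the third 0.0189, the last with less than a 2-fold difference. In pie-1 embryos without RNAi the first read 4.42 and 3.97 and the second 3.70 and 3.48, also below N2. The third read 7.55 and 6.44, one array above and one below all of N2 (0.14 on the log2 scale, adjusted p = 0.971).

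The largest losses included genes of the oocyte and the germ lineage. The glycogenin-like gene gyg-2 read 6.28, 7.11, 7.33 and 7.08 in N2 and 3.54, 3.53 and 3.46 in the mutant. The difference was -3.44 ± 0.37 (adjusted p = 5.8e-11), and the mutant values lay near the array medians of 3.24 to 3.34. No detection calls were used, so for transcripts at or near these medians in the mutant the difference is given on the log2 scale with no fold, since the level there may be background. The gene grif-1, which acts in germ cell precursors, read 7.95, 7.80, 7.77 and 7.90 in N2 and 5.63, 4.17 and 4.33 in the mutant. That is 8.84-fold lower (-3.14 ± 0.33, adjusted p = 2.42e-11), with mutant replicate 1 the highest of its group. For cpg-2, a chondroitin proteoglycan of the eggshell, N2 read 6.14, 6.44, 6.49 and 6.46 and the mutant 3.39, 3.40 and 3.04 (-3.11 ± 0.47, adjusted p = 1.36e-06). A second probe set of cpg-2 was lower by less, at -1.65.

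Other transcripts among the 12 largest losses were F18A1.7 (-2.80 ± 0.51), lea-1 (-2.78 ± 0.53), which encodes a late embryogenesis abundant protein, and rml-1 (-2.52 ± 0.36). The probe sets of lea-1 disagreed: a second was called lower (-1.88) and the other four differed by -0.44 to 0.38 and were not called. Those of F18A1.7 disagreed too, with a second called lower (-2.21) and another not called (-0.10). The probe set of the ribosomal RNA gene rrn-3.1 had the largest difference, -3.68 ± 0.75, with values of 8.18, 10.75, 10.13 and 11.64 in N2 against 7.20, 6.60 and 5.67 in the mutant. N2 replicate 1 was the lowest of its group by far. Of 4 other rrn-3.1 probe sets 3 were called lower (-3.32, -2.68 and -2.64, the last with overlapping groups) and 1 was not (-1.28, adjusted p = 0.217), where N2 replicate 1, at 5.42, lay below all mutant arrays. That gene belongs to a multi-copy family, so the copies cannot be separated. The probe set of ule-3 (-2.94 ± 0.75) had the same order of N2 arrays, 8.14, 10.71, 9.75 and 11.66, and lost its call without mutant replicate 3 or N2 replicate 4. A second ule-3 probe set was not called (-0.37).

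Of the 21 lists examined, that of maternal RNA regulators held the largest number of losses. It also holds genes of the egg surface, eggshell and egg activation, so its name does not cover all members. Of 29 measured genes 13 were called lower and 1 higher, with a median difference of -1.08, beside 438 lower and 74 higher of 17118 genes and a median of -0.02 when each gene stands by its brightest probe set. That background is dimmer than several lists. An N2 mean of at least 5 was reached by 3305 of the 17118 genes, by 20 of these 29 and by 10 of the 12 catabolic genes below. The Y-box RNA-binding gene cey-3 read 7.26, 7.66, 7.51 and 7.41 in N2 and 5.41, 4.73 and 4.39 in the mutant (-2.62 ± 0.42, adjusted p = 6.81e-06). The CCCH zinc finger gene pos-1, needed for the fate of posterior blastomeres, has 2 probe sets. The brighter, which stands for pos-1 in the list, read 7.82, 7.70, 8.07 and 7.92 in N2 and 6.40, 5.29 and 5.31 in the mutant (-2.21 ± 0.40, adjusted p = 6.58e-05). The dimmer read 6.67, 6.78, 6.51 and 6.90 in N2 and 4.11, 4.14 and 3.97 in the mutant (-2.64 ± 0.41, adjusted p = 3.38e-06). In both genes every mutant array lay well below every N2 array.

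The Pumilio-family genes puf-11 (-2.27), puf-5 (-2.13), puf-3 (-2.05) and puf-7 (-1.31) were called lower, as were the RNA-binding gene spn-4 (-1.71) and the oocyte maturation regulators oma-2 (-1.63) and oma-1 (-1.3). So were the egg activation gene egg-3 (-1.63), the egg surface gene egg-2 (-1.28), the eggshell gene cbd-1 (-1.90) and cey-2 (-1.42). The exception in direction was mbk-2, a kinase of the egg-to-embryo transition, at 1.16 ± 0.31 (adjusted p = 0.0109). Others were not called: the differences of mex-1 and gld-1 were -0.07 and 0.27, and that of mex-5 was -0.59. Probe sets disagreed in mex-3, mex-6, cey-4 and cey-1, where the brightest were not called (-1.15, -1.08, -0.30 and 0.44) and dimmer ones were called lower (-1.54, -1.39, -1.43 and -1.31).

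Among germ granule and primordial germ cell genes 6 of 21 were called lower and 0 higher, beside 438 and 74 of 17118 genes. The median difference was -0.63. The Nanos-related gene nos-2 read 5.57, 5.78, 5.88 and 5.41 in N2 and 3.44, 3.11 and 3.07 in the mutant, near the array medians (-2.45 ± 0.32, adjusted p = 1.9e-08). The germ granule gene meg-1 read 5.48, 5.77, 5.71 and 5.99 in N2 and 4.05, 4.02 and 4.13 in the mutant (-1.67 ± 0.28, adjusted p = 1.26e-05), and its other probe sets were called lower as well. No mutant array reached the N2 range in either gene. The P granule genes deps-1 (-1.5), glh-1 (-1.28), which encodes a Vasa-related helicase, and pgl-1 (-1.02, a call lost under all 3 scalings and in further settings) were called lower, and so was mes-2 (-1.38), which encodes a Polycomb-group histone methyltransferase. The chromatin genes mes-3 and mes-4 stood at 0.74 and 0.34 and were not called. The count fell to 3 with the GAPDH difference as a term, and to 3 at the lowest when 1 array was left out.

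Cell cycle and replication genes showed 5 of 28 called lower and 0 higher, beside 438 and 74 of 17118 genes. Their median difference was -0.55. An N2 mean of at least 5 was reached by 23 of these 28 and by 3305 of the 17118, so the background is dimmer than the list. With a filter on dim probe sets 681 of 6419 were called lower. The 3792 brighter probe sets had a median difference of -0.275. The phosphatase gene cdc-25.1, a maternal activator of early divisions, read 4.81, 5.00, 4.99 and 5.40 in N2 and 4.02, 3.38 and 3.49 in the mutant (-1.42 ± 0.26, adjusted p = 9.73e-05). The ribonucleotide reductase gene rnr-1 (-1.21 ± 0.30), its partner rnr-2 (-1.06 ± 0.27), the helicase gene mcm-4 (-1.20 ± 0.28) and the sliding clamp gene pcn-1 (-1.08 ± 0.36) were lower too. In mcm-4 the arrays read 8.74, 8.83, 8.37 and 8.51 in N2 and 7.65, 7.27 and 7.32 in the mutant, without overlap. The count fell to 1 after quantile normalization, after centring on bright probe sets, with the GAPDH term and without N2 replicates 1 and 2. Differences of cyb-3, cdk-1, mcm-7 and cdc-6 were between -0.09 and 0.02 in the brightest probe sets, while dimmer ones of cyb-3 and mcm-7 stood at -0.88 and -0.72 and were not called. A dimmer probe set of orc-2 was called lower (-1.1).

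**Figure D2:**
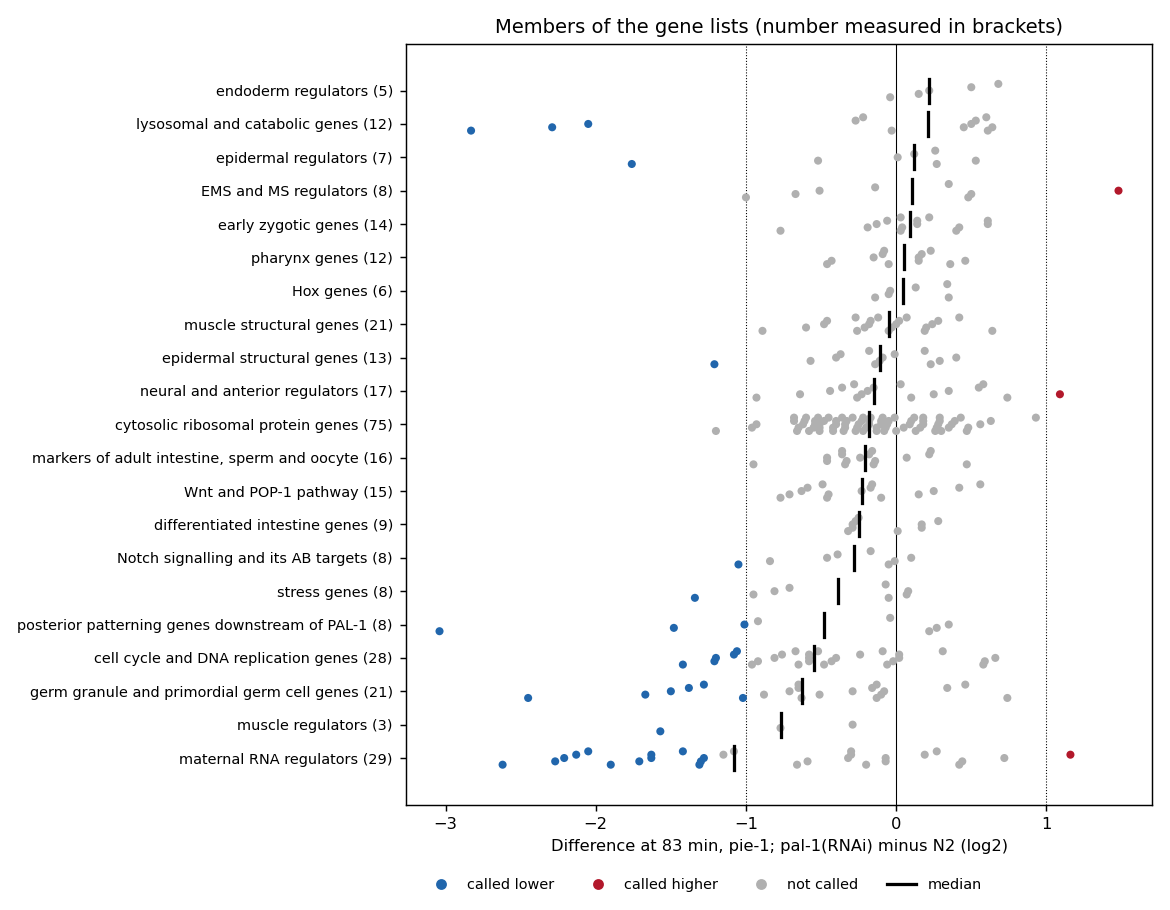
Each point is a measured gene of a list, placed by its difference of pie-1; pal-1(RNAi) from N2 at 83 min in log2 units, with black bars for the list medians and the number measured in brackets. The maternal RNA regulators have the lowest median, -1.08, and 13 members called lower, while most lists have medians between -0.3 and 0.3.

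Several regulators of the posterior lineages were lower. Of 8 posterior patterning genes downstream of PAL-1, 3 were called lower and 0 higher, beside 438 and 74 of 17118 genes. Part of this list rests on work with these samples, so it is not independent evidence of direction. The Wnt ligand gene cwn-1 read 5.90, 5.90, 5.68 and 6.26 in N2 and 2.85, 2.54 and 3.27 in the mutant (-3.04 ± 0.85, adjusted p = 0.0137). All mutant arrays lay near or below the array medians and far below N2. The pooled spread includes single mutant arrays of 41 and 143 min that read 11.06 and 10.55. On the 7 arrays alone the adjusted p of cwn-1 was 2.62e-05, and its call was lost without mutant replicate 2 (-2.87, adjusted p = 0.0544) and with the GAPDH term (-2.63, adjusted p = 0.0763).

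The T-box gene tbx-9 read 7.94, 7.40, 7.21 and 7.32 in N2 and 5.80, 5.74 and 6.43 in the mutant (-1.48 ± 0.31, adjusted p = 0.000767). Its paralog tbx-8 read 5.22, 4.88, 5.33 and 4.76 in N2 and 3.63, 4.33 and 4.16 in the mutant (-1.01 ± 0.27, adjusted p = 0.00841), just past the 2-fold limit, and lost its call under all 3 scalings and in further settings. Neither gene had a mutant array within the N2 range. The Snail-type gene scrt-1 (-0.92 ± 0.25, adjusted p = 0.00965) was just short of the limit. The remaining members vab-7, mab-21, nob-1 and php-3 had N2 means of 3.02 to 3.54 and differences of -0.04 to 0.35. Without N2 replicates 1 and 2 only tbx-9 of the list was called.

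Of the 3 muscle regulators, hnd-1, the HAND-type factor, was called lower, where 438 of 17118 genes were. It read 6.77, 6.26, 6.70 and 6.37 in N2 and 4.65, 5.30 and 4.91 in the mutant (-1.57 ± 0.38, adjusted p = 0.00412). For unc-120, the SRF-type factor, the N2 values were 4.09, 3.64, 3.98 and 4.05 and the mutant values 3.03, 3.27 and 3.20, which do not overlap but gave an adjusted p of 0.0995. The MyoD homolog hlh-1 was near the array medians in both groups (-0.29 ± 0.25). Among 21 muscle structural genes 0 were called by the brightest probe set, with a median of -0.05, while other probe sets of cpn-1 (-1.19), unc-97 (-1.05) and pat-4 (-1.02) were called lower.

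The GATA factor gene elt-1, which specifies epidermis, read 7.41, 6.95, 6.99 and 7.19 in N2 and 5.72, 4.99 and 5.42 in the mutant, 3.38-fold lower (-1.76 ± 0.41, adjusted p = 0.0029). It was the single call among 7 epidermal regulators by the brightest probe set, where 438 of 17118 genes were called lower. A dimmer probe set of elt-6 was called lower (-1.02) where the brightest differed by 0.26. The differences of lin-26, egl-18 and elt-3 were -0.52, 0.27 and 0.53. Of 13 epidermal structural genes the collagen gene sqt-3 was called lower, from 4.90, 5.08, 5.00 and 4.85 to 4.05, 3.55 and 3.64 (-1.21 ± 0.24, adjusted p = 0.000289). A dimmer probe set of noah-1 was called lower too (-1.06). The second probe set of sqt-3 was not called (-0.42), and the first lost its call after quantile normalization or bright centring.

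**Figure D3:**
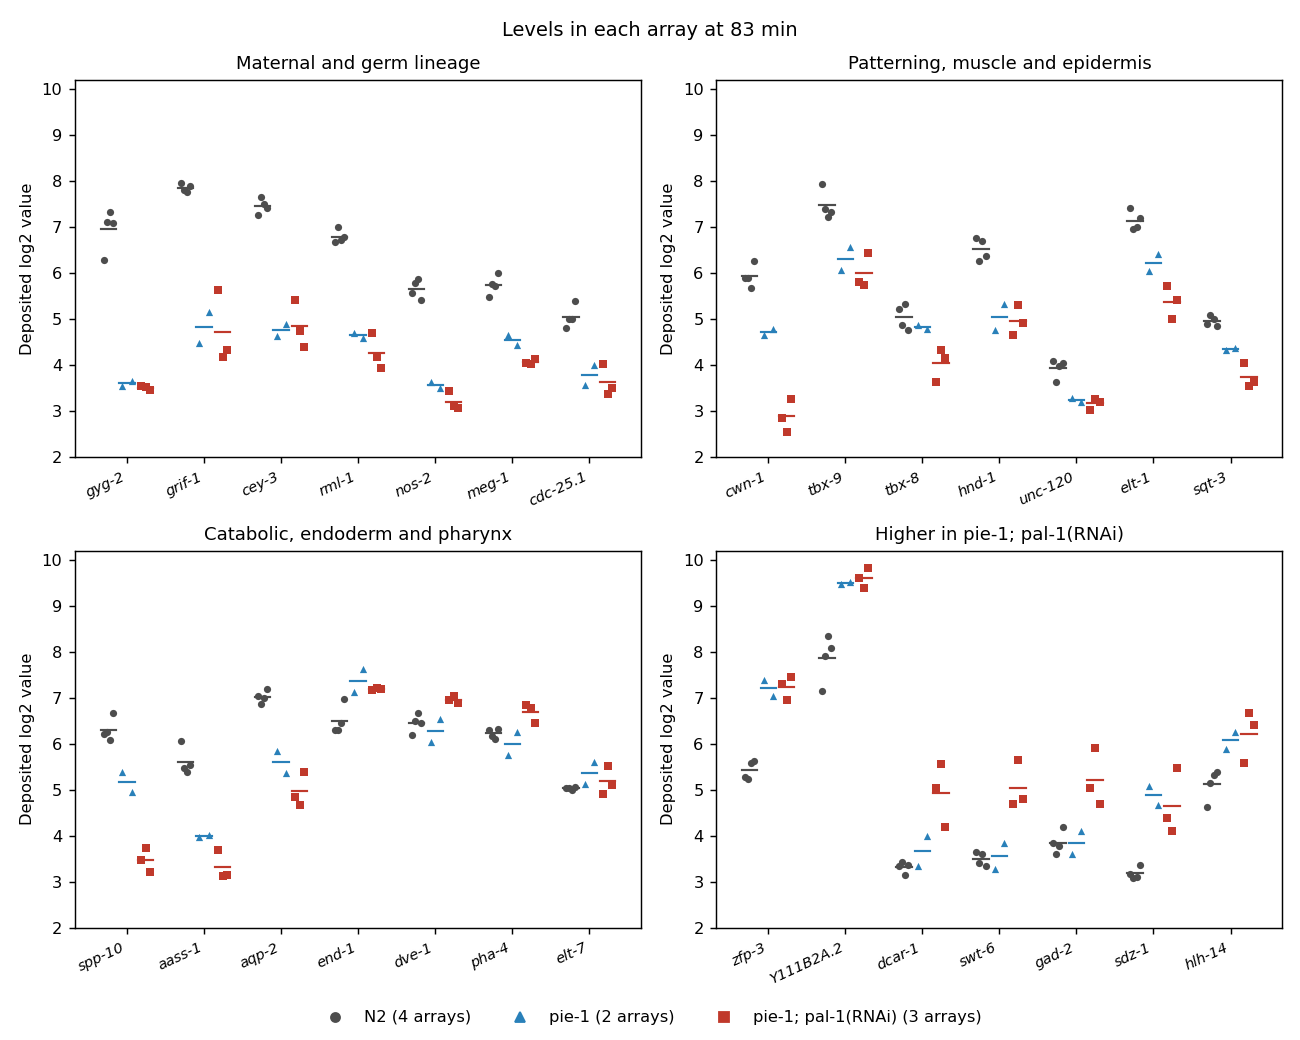
Deposited log2 values of single arrays at 83 min, with a bar for each group mean, for N2 (grey circles, 4 arrays), pie-1 without RNAi (blue triangles, 2 arrays) and pie-1; pal-1(RNAi) (red squares, 3 arrays). The gyg-2, grif-1 and aass-1 values are below N2 in both pie-1 genotypes, and the pie-1 values of cwn-1 and spp-10 lie between those of the mutant and N2.

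Another set of losses was in genes of metabolism and digestion. Of 12 lysosomal and catabolic genes 3 were called lower and 0 higher, beside 438 and 74 of 17118 genes. The median of the list was still 0.21. The saposin-like gene spp-10 read 6.22, 6.25, 6.09 and 6.66 in N2 and 3.47, 3.74 and 3.22 in the mutant (-2.83 ± 0.29, adjusted p = 2.08e-11). A second spp-10 probe set was called lower (-1.22) and another was not called (-0.14). The lysine degradation gene aass-1 read 6.06, 5.47, 5.38 and 5.53 in N2 and 3.69, 3.13 and 3.14 in the mutant (-2.29 ± 0.27, adjusted p = 1.86e-09). For the aquaporin gene aqp-2 N2 read 7.05, 6.86, 6.99 and 7.19 and the mutant 4.85, 4.67 and 5.39 (-2.05 ± 0.31, adjusted p = 1.81e-06). These groups were far apart, and the list's count of 3 held under each of the 3 scalings and with each array left out in turn. The differences of asm-1, kynu-1, ugt-23, icl-1, nuc-1 and acp-2 were positive, 0.45 to 0.64, and none was called. The list was mixed at the neighbouring times. At 66 min 5 of the 12 were called higher and 2 lower, beside 201 and 751 of 17118 genes. At 101 min 5 were called higher and 3 lower, beside 82 and 248 of 17118. The difference of asm-1 was 1.79 at 66 min and 1.46 at 101 min.

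Few regulators of endoderm, pharynx and the MS lineage were called at 83 min. Of 5 endoderm regulators 0 were called, with a median of 0.22. The GATA factor gene end-1 read 6.30, 6.30, 6.45 and 6.98 in N2 and 7.17, 7.21 and 7.19 in the mutant (0.68 ± 0.28, adjusted p = 0.105). The pharyngeal selector gene pha-4 read 6.31, 6.18, 6.11 and 6.32 in N2 and 6.85, 6.77 and 6.45 in the mutant (0.46 ± 0.27, adjusted p = 0.275). In both genes the mutant arrays lay above all N2 arrays by less than the fit's spread could separate, and a second pha-4 probe set differed the other way (-0.71). The intestinal GATA factor genes elt-2 and elt-7 differed by 0.22 and 0.15. At 66 min the differences of elt-7 (1.15, adjusted p = 1.3e-05), pha-4 (1.31, adjusted p = 4.24e-05) and dve-1 (2.24, adjusted p = 7.06e-10) had been called higher. Among these the change from 66 to 83 min was called in dve-1 alone.

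Of 8 measured EMS and MS regulators, sdz-1, a zygotic gene that depends on skn-1, was called higher, where 74 of 17118 genes were. It read 3.17, 3.08, 3.11 and 3.37 in N2 and 4.38, 4.11 and 5.48 in the mutant (1.48 ± 0.30, adjusted p = 0.000503). The MS homeobox gene ceh-51 differed by -0.67 and the MS T-box gene tbx-35 by 0.48, neither called. By the brightest probe set 0 were called of 12 pharynx genes, 9 differentiated intestine genes, 6 Hox genes, 15 Wnt and POP-1 pathway genes, 14 early zygotic genes, 75 ribosomal protein genes, and 16 markers of adult intestine, sperm and oocyte. Their medians ranged from -0.25 to 0.09. A second probe set of vet-2, an early zygotic gene, was called lower (-1.76), as were 3 dimmer ribosomal probe sets and one of eya-1.

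Among 8 Notch pathway genes and targets, the AB-lineage T-box gene tbx-38 was called lower, beside 438 lower and 74 higher of 17118 genes. It read 6.71, 7.24, 6.64 and 6.86 in N2 and 5.94, 6.32 and 5.19 in the mutant (-1.05 ± 0.28, adjusted p = 0.00986), a call lost in 6 settings, among them quantile normalization, bright centring (-0.75), the GAPDH term and the omission of mutant replicate 3 (-0.74, adjusted p = 0.176). Of 17 neural and anterior regulators, the neurogenic bHLH gene hlh-14 was called higher, from 4.63, 5.15, 5.33 and 5.38 to 5.58, 6.66 and 6.41 (1.09 ± 0.32, adjusted p = 0.0201). That call was lost without mutant replicate 2 or 3 or N2 replicate 1, and in further settings. The Distal-less homolog ceh-43 was lower by less than 2-fold (-0.93 ± 0.27, adjusted p = 0.019). Probe sets of unc-30, a homeobox gene of GABA neurons, disagreed, with -1.48 ± 0.17 in the dimmer and -0.36 in the brighter, and one of hlh-2 was called lower (-1.01) while the other stood at 0.55. Of 8 stress genes hsp-4, the BiP chaperone gene, was lower (-1.34 ± 0.39, adjusted p = 0.0171), a call lost in 5 settings with adjusted p of 0.051 to 0.159, among them quantile normalization, the GAPDH term and the omission of mutant replicate 3.

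The largest rises were taken gene by gene, since no list covers them. The zinc finger gene zfp-3 read 5.27, 5.24, 5.59 and 5.62 in N2 and 7.29, 6.96 and 7.46 in the mutant (1.81 ± 0.33, adjusted p = 8.01e-05), but its 4 other probe sets differed by -0.55 to 0.35 and were not called. Y111B2A.2 read 7.14, 7.92, 8.35 and 8.08 in N2 and 9.61, 9.39 and 9.82 in the mutant (1.73 ± 0.38, adjusted p = 0.00129), a call lost without N2 replicates 1 and 2 (1.39, adjusted p = 0.0675). The SWEET-family sugar transporter gene swt-6 read 3.65, 3.40, 3.61 and 3.35 in N2 and 4.70, 5.65 and 4.80 in the mutant (1.55 ± 0.21, adjusted p = 6.48e-08). No mutant array of these probe sets lay within the N2 range.

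The receptor gene dcar-1 rose from 3.35, 3.43, 3.15 and 3.36 to 5.04, 5.57 and 4.19 (1.61 ± 0.27, adjusted p = 1.09e-05), again with one of its probe sets flat (-0.12). Rises in serp-1.1 (1.67 ± 0.39), nlp-31 (1.66 ± 0.39), F09F7.6 (1.51 ± 0.36), ubl-5 (1.49 ± 0.38), a ubiquitin-like gene, and ttc-36 (1.46 ± 0.34) were each called, and each lost its call in at least 1 of the settings tried. The carboxylesterase-like gene cest-26 (1.63 ± 0.50, adjusted p = 0.0256) and the GTPase gene rab-11.1 (1.45 ± 0.45, adjusted p = 0.0291) each lost their call in 6 or more settings. Further probe sets of serp-1.1 (0.07) and cest-26 (0.03) were flat and not called. Those of rab-11.1 disagreed, at 1.21 (called higher) and -0.21 (not called).

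Arrays of the neighbouring times are separate from those of 83 min. Against N2, 1254 probe sets were called in the mutant at 66 min (5.56%, 4 arrays against 4) and 433 at 101 min (1.92%, 2 arrays against 3). All mutant arrays of both times were scanned on a day that also held mutant arrays of 83 min, so those days are not independent. Of the 707 probe sets lower at 83 min, 97.6% were negative at 66 min and 96.0% at 101 min, beside 49.2% and 53.0% of all probe sets. Their medians were -1.24 at 83 min, -1.08 at 66 min and -0.80 at 101 min. Of these, 383 were called lower at 66 min, 54.2% of the 707 and 37.3% of the 1027 called lower then (4.55% of all). At 101 min 177 were called lower, 25% of the 707 and 53.2% of the 333 called lower then (1.48% of all). Of the 92 higher at 83 min, 95.7% were positive at 66 min and 91.3% at 101 min, beside 50.8% and 47.0% of all. Of these 92, 44 were called higher at 66 min, when 1.01% of all were, and 21 at 101 min, when 0.443% were.

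Single genes followed different courses. In N2 gyg-2 fell from 10.56 at 0 min to 6.95 at 83 min, while in the mutant it fell from 9.40 to 3.51. The nos-2 mean went from 8.43 to 5.66 in N2 and from 7.01 to 3.20 in the mutant. For spp-10 N2 rose from 3.12 at 0 min through 6.30 at 83 min to 9.56 at 186 min, and the mutant means stayed between 3.03 and 3.48 over all 10 times. The difference of spp-10 was -1.74 at 66 min and -4.09 at 101 min, and that of aass-1 -1.16 and -2.96.

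The elt-1 mean rose in N2 from 4.47 at 66 min to 7.13 at 83 min and in the mutant from 4.75 to 5.38. Its difference was 0.28 at 66 min and -1.01 at 101 min, neither called, and -2.14 ± 0.41 at 122 min (adjusted p = 0.000225). For hnd-1 N2 rose from 4.04 to 6.52 and the mutant from 3.24 to 4.95 over the same interval. The cwn-1 mean in N2 went from 4.27 to 5.93 while the mutant stayed at 2.91 and 2.89.

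Probe sets that fall with time in N2 made up a large share of the losses. From 53 to 122 min, in N2 arrays that are not part of the 83 min comparison, 2428 probe sets changed (10.8%), of which 1230 fell (5.46%) and 1198 rose (5.31%). Of the 1230, 19.9% were lower in the mutant at 83 min, with a median difference of -0.55. Of the 1198, 4.76% were lower and 2.59% higher, with a median of -0.08, and of the 20120 others 2.01% were lower. These sets were not matched in level, and with a filter on dim probe sets 681 of 6419 were called lower. Seen from the calls, 34.7% of the 707 lower and 12% of the 92 higher probe sets fell in N2, and 8.06% and 33.7% rose. Examples of losses that fall in N2 were lea-1 (-3.70 from 53 to 122 min) and pos-1 (-2.72 in its dimmer probe set), and examples that rise were spp-10 (3.72), elt-1 (3.71) and hnd-1 (3.09).

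Some differences changed between 66 and 83 min. In a test of the change itself 35 probe sets were called (0.155%), 26 with a lower (0.115%) and 9 with a higher (0.0399%) difference at 83 min. Between 101 and 83 min 5 were called (0.0222%), 3 with a higher (0.0133%) and 2 with a lower (0.00887%) difference at 83 min. Of the 26, 14 had been called higher in the mutant at 66 min and 3 were called lower at 83 min. The transcript of ceh-43 rose in N2 from 5.11 at 66 min (range 4.04 to 6.60) to 8.48 at 83 min, and in the mutant from 7.12 to 7.55. Its difference moved from 2.01 to -0.93, a change of -2.94 ± 0.37 (adjusted p = 1.49e-07). In dve-1, a homeobox gene expressed in the intestine, N2 went from 4.66 to 6.46 and the mutant from 6.90 to 6.96. Its difference moved from 2.24 to 0.50 (-1.74 ± 0.39, adjusted p = 0.0288). A dimmer dve-1 probe set moved from 0.59 to -0.54 (-1.13 ± 0.25, adjusted p = 0.0288), so the probe sets disagreed in direction at 83 min. In ceh-43 and the brighter dve-1 probe set the mutant mean was above N2 at 66 min and rose little from then on, while N2 rose.

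**Figure D4:**
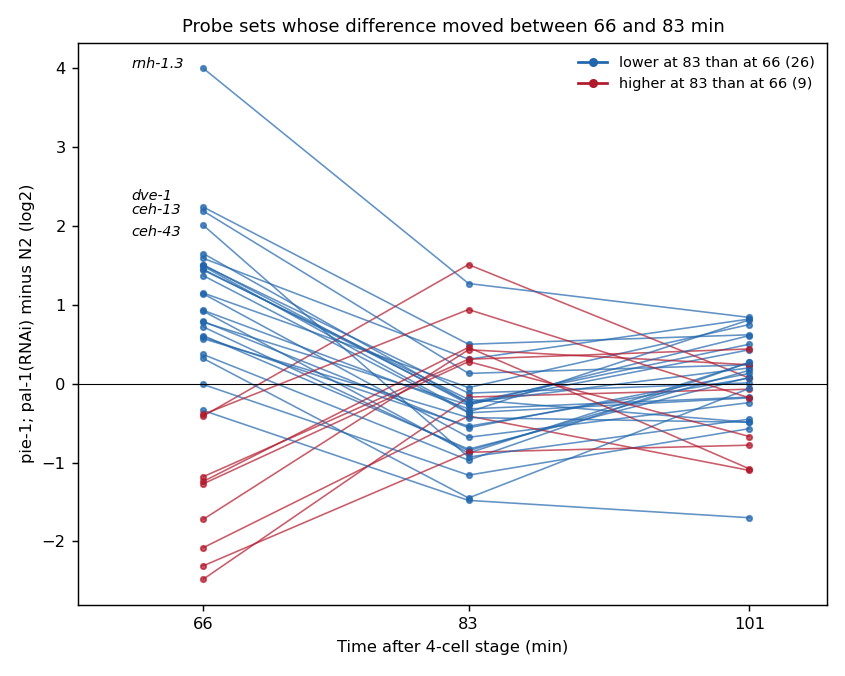
Lines join the differences of pie-1; pal-1(RNAi) from N2 in log2 units at 66, 83 and 101 min for the 35 probe sets whose difference changed between 66 and 83 min, 26 of them downward (blue) and 9 upward (red). Most blue lines start above 0 and lie near or below 0 at 83 min.

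Embryos with the pie-1 allele alone, in 2 arrays, gave values to set beside these. They share the N2 arrays with the comparison above, so no share or correlation is drawn. Against N2, 170 probe sets were called at 83 min (0.754%), 156 lower (0.692%) and 14 higher (0.0621%). In gyg-2 the pie-1 arrays read 3.55 and 3.66, in grif-1 4.48 and 5.16, in nos-2 3.63 and 3.51, and in cey-3 4.64 and 4.89. Those values lay beside those of the mutant. By contrast cwn-1 read 4.66 and 4.78 and spp-10 5.39 and 4.96, between the mutant and N2. The hnd-1 values were 4.76 and 5.32 and the tbx-9 values 6.06 and 6.56, close to the mutant. For elt-1 they were 6.04 and 6.41, again between.

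Between the mutant and pie-1 embryos without RNAi, 10 probe sets were called (0.0443%), 6 lower (0.0266%) and 4 higher (0.0177%), in a contrast that shares the mutant arrays with the one against N2. For the saposin-like gene spp-10 the difference was -1.70 ± 0.35 (adjusted p = 0.0111). The cysteine synthase-like gene cysl-3 read 3.28, 3.40 and 3.41 with pal-1(RNAi) and 5.05 and 5.28 without, a difference of -1.80 ± 0.40 (adjusted p = 0.037). Higher with pal-1(RNAi) were swt-6 (1.48, adjusted p = 0.000646), ugt-50 (1.45, adjusted p = 0.00462) and gad-2 (1.37, adjusted p = 0.000646). The other probe sets of ugt-50 (0.43 and 0.22) and of spp-10 (-0.49 and -0.29) were not called in this contrast. The gad-2 arrays read 5.05, 5.92 and 4.69 with and 3.60 and 4.10 without, and N2 read 3.84, 3.60, 3.78 and 4.19. For cwn-1 the difference of -1.83 was not called (adjusted p = 0.897), and for pal-1 itself the 3 probe sets gave -0.87, -0.12 and -0.59, none called. With 3 arrays against 2, and with the pie-1 arrays lacking a scan day, these differences are less precise than those against N2.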

How the data were processed

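Arrays were grouped by the genotype and time in the labels, 3 of pie-1; pal-1(RNAi) and 4 of N2 at 83 min. The authors deposited 1 log2 value per probe set and array. That the scale is log2 was read from its range. Probe summarisation, background correction and normalization are not given in the labels used here. Of 22625 probe sets 77 controls were left out. The platform table gave 1 gene symbol for 20766, several for 887 and none for 895. A mean for each of 40 groups was fitted to the arrays of all genotypes and times with limma 3.58.1 in R 4.3.3 (constant prior variance, 83 residual and 4.8 prior degrees of freedom), with Benjamini-Hochberg adjustment over 22548 probe sets per contrast. On data simulated for this comparison with 200 changed probe sets, 92.5% were recovered at a log2 change of 1.5, 98.5% at 2 and 100% at 3, with 1 false call. The simulated arrays were independent and held no difference in scan day, chip lot, GAPDH or scaling. The number of false calls from such differences therefore cannot be read from them.

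Genes named are pie-1 and pal-1, the 12 largest rises and 12 largest falls with 1 symbol and groups that do not overlap, up to 4 genes per list by adjusted p, and the 5 largest differences from pie-1. Further members of the 21 lists, and genes outside them, were named after their values were seen. The contrast, the members and the lists were chosen with earlier results of these data known. The brightest probe set stands for a gene in the lists. Alternatives covered scaling, the fold limit, a filter on dim probe sets, an intensity trend, the 7 arrays alone, a replicate block and leaving out each array, and, added after seeing the data, the GAPDH term, scan day as a random block, N2 replicates 1 and 2 left out, and the change between times. A planned description of promoter letters was not made, and no sequences were used here.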

Additional observations from a re-analysis of the deposited data

Results flagged for a closer look

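In 5 of the 110 named probe sets a single N2 array stood apart from the other 3 by a gap large for the group's range. Chance alone gives such a gap in about 1 in 20 groups. N2 replicate 1 was the lowest in cpg-2 (6.14, next 6.44), in vab-10 (3.06, next 3.6) and in pop-1 (2.84, next 4.17), and the highest in ceh-51 (7.74, next 7.23). N2 replicate 3 was the highest in sdz-23 (3.65, next 3.37). The call of cpg-2 held without N2 replicate 1, and the other genes were not called. The difference of the mutant from N2 changed between 66 and 83 min in dve-1 by -1.74 (adjusted p = 0.0288 in limma) and in ceh-43 by -2.94 (adjusted p = 1.49e-07).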

How the results depend on the processing

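Of 49 named probe sets that were called, 29 kept their call in all 18 settings, and no called value changed sign. The 799 calls (92 higher and 707 lower) became 2138 (535 and 1603) without the fold limit, 511 (216 and 295) after quantile normalization and 579 (285 and 294) after centring on bright probe sets. With the GAPDH 3' minus 5' difference as a term they became 352 (47 and 305), and without N2 replicates 1 and 2 446 (31 and 415), settings chosen after seeing the data. Median centring gave 722, an intensity trend 821, a filter on dim probe sets 763 of 6419, the 7 arrays alone 887 and scan day as a random block (correlation 0.116, 96 arrays) 906. Leaving out 1 array gave 463 to 835 calls, 68 to 92 higher and 393 to 765 lower, with the lowest total without mutant replicate 3.

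Among lists, cell cycle genes called lower numbered 5, and became 9 without the fold limit and 1 after quantile normalization, after bright centring, with the GAPDH term and without N2 replicates 1 and 2, and 3 to 4 with 1 array left out. The 6 germ granule genes became 3 with the GAPDH term and 3 to 6 with 1 array left out. The 3 posterior genes became 1 without N2 replicates 1 and 2 and 2 to 3 with 1 array left out. Maternal regulators ranged from 10 to 14 and catabolic genes stayed at 3 with 1 array left out. The 10 calls against pie-1 became 15 after quantile normalization, 5 after median centring and 4 after bright centring. The causes were not tested. Deviations of same-numbered arrays gave correlations of -0.048 to 0.115 over 3 pairs, the highest in replicate 3. Arrays of unlike number gave -0.114 to 0.099. A replicate block on the 7 arrays gave 854 calls, 109 higher and 745 lower, 733 of them among the 799.

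The number of arrays, pooled embryos and scan days that each hold 1 genotype limit these comparisons.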

Other observations

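Some called genes outside the naming rule share a function, and were picked after their values were seen, so they carry no test as a group. Chaperone genes of the endoplasmic reticulum were lower: hsp-3 read 9.53, 9.06, 8.66 and 9.10 in N2 and 7.35, 6.63 and 6.14 in pie-1; pal-1(RNAi) (-2.38 ± 0.59, adjusted p = 0.00455), and the disulfide isomerase genes pdi-1 (-1.71), pdi-2 (-1.70) and pdi-6 (-1.65) were called lower too. In each of the 4 genes all arrays of the mutant lay below those of N2, as in 695 of the 707 probe sets called lower and 19.2% of all probe sets. The eggshell proteoglycan gene cpg-1 (-1.93) and the related cpg-4 (-2.08) were lower beside cpg-2. The importin alpha gene ima-2 was lower (-2.28 ± 0.38, adjusted p = 1.02e-05), and the Argonaute gene wago-1 was lower too (-1.64 ± 0.41, adjusted p = 0.00477). Among rises, the mitochondrially encoded ND4 (1.39 ± 0.47, adjusted p = 0.0446) and COX1 (1.08 ± 0.36, adjusted p = 0.0431) were called, as were the Frizzled gene cfz-2 (1.23 ± 0.23, adjusted p = 0.0001) and hlh-30 (1.37 ± 0.27, adjusted p = 0.000247), a homolog of the lysosomal regulator TFEB, whose other probe sets were not called (0.69 and -0.28).

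Single pie-1; pal-1(RNAi) arrays of other times held very high cwn-1 values, 11.06 in replicate 1 at 41 min and 10.55 in replicate 1 at 143 min, where the next highest mutant array read 5.27. In pal-1 the highest values of the probe set with the smallest difference at 83 min were 12.21 in replicate 2 and 10.97 in replicate 1 at 41 min and 10.32 in replicate 2 at 186 min. None of these arrays is of 83 min.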
